A study of Homo sapiens with 16 samples.

Results

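A pair of MDA-MB-231 library sets was compared here across all genes, and the sets differ in the RNA concentration given for them in the labels. MDA-MB-231 is an established line of human breast cancer cells of the triple-negative type. Cells had received afatinib, the combination of afatinib and paclitaxel, paclitaxel, or the solvent DMSO as the control. Afatinib is an irreversible inhibitor of the EGFR family of kinases, and paclitaxel stabilises microtubules. No dose or time is stated for these samples. Each treatment had 4 replicates, 16 libraries in all. Replicates 3 and 4 of the 4 treatments form the set with the lower labelled concentration (8 libraries, 118 to 330 ng/µl). Replicates 1 and 2 form the set with the higher one (8 libraries, 345.6 to 1290.9 ng/µl). Members were chosen by replicate number and label alone, and every library belongs to 1 of the sets. The 2 sets do not overlap in concentration within any treatment. Means were 184 ng/µl in replicates 3 and 4, against 1002 ng/µl in replicates 1 and 2, under afatinib, 143 and 623 ng/µl under the combination, 252 and 388 ng/µl under paclitaxel, and 311 and 1171 ng/µl under DMSO. Every fold below is replicates 3 and 4 over replicates 1 and 2, with treatment as a term of the model, so a positive log2 fold is higher at the lower concentration. Anything else that differed between replicates 1 and 2 and replicates 3 and 4 cannot be told apart from the labelled concentration.

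Messenger RNA is read by ribosomes in the cytosol, and a part of it is read at the membrane of the endoplasmic reticulum (ER). Messages for secreted proteins and for most proteins of the surface and of the secretory organelles carry a stretch of hydrophobic amino acids, a signal peptide or a membrane span, which brings the ribosome to the ER. In the genetic code, all codons with T as the middle base stand for hydrophobic amino acids (phenylalanine, leucine, isoleucine, methionine or valine), so a run rich in such codons marks a hydrophobic stretch in the message itself. A further group of messages is made inside mitochondria from the mitochondrial genome and is read by ribosomes there.

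Library totals ran from 28366004 to 48108577 counts. The lowest was paclitaxel replicate 4. Markers of the line were checked first: vimentin (VIM) was at 844 to 1207 CPM (counts scaled to the same library total) in replicates 3 and 4 and 865 to 1212 CPM in replicates 1 and 2. ESR1, the estrogen receptor, had 6 to 21 counts per library in replicates 3 and 4 and 7 to 23 counts in replicates 1 and 2. PGR, the progesterone receptor, had 104 to 298 counts in replicates 3 and 4 and 162 to 255 counts in replicates 1 and 2. ERBB2 had 2287 to 4180 counts in replicates 3 and 4 and 2192 to 2958 counts in replicates 1 and 2. PGR and ERBB2 were thus detected in every library. The check also held CD44 and EGFR, whose folds are given below. Libraries of the same treatment and set differed by a chi-square per gene of 6.62 to 29.7, so none was a copy of another. The labels do not say whether replicates were separate cultures, and p-values then measure the spread between these libraries, which may be technical.

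Most of the transcriptome differed between the sets, mostly by small amounts. Of 17991 genes tested, 12508 passed the test (69.5%), 6512 higher (36.2%) and 5996 lower (33.3%) in replicates 3 and 4 (edgeR quasi-likelihood F-test, Benjamini-Hochberg adjusted p under 0.05). Few of these differences were large. Tested against a null of 1.5-fold, 1827 genes remained (10.2%), 1639 higher (9.11%) and 188 lower (1.04%). Against a null of 2-fold, 48 genes remained, all of them higher. The count of 188 was 319 without DMSO replicate 3, 286 without paclitaxel replicate 2 and 80 without the combination group. With DESeq2 in place of edgeR the 1827 genes became 1021, of which 939 were higher and 82 lower. For 4056 genes (22.5%) the 8 values of replicates 3 and 4 and the 8 of replicates 1 and 2 did not overlap at all, and 1246 of the genes changed beyond 1.5-fold were among them. The 8 values of a set mix the 4 treatments, so sets can also overlap where levels differ between treatments.

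The transcripts made from the mitochondrial genome stood highest of the gene lists. They took 6.70 ± 1.93% of the counts in replicates 3 and 4 and 2.91 ± 0.45% in replicates 1 and 2 (SD, n = 8 each), with ranges of 4.08 to 9.69% and 2.26 to 3.48% that do not overlap (exact permutation of the set labels within treatments, two-sided p = 0.00154, adjusted p = 0.00193, the smallest that the arrangements allow). All 15 genes rose, with a median log2 fold of 1.30 against 0.01 over all tested genes, and 14 of the 15 rose beyond 1.5-fold. For 8 of the 15 the sets did not overlap. The median differed by treatment: 1.48 under afatinib, 1.72 under the combination, 1.05 under paclitaxel and 0.98 under DMSO. In bulk libraries, fewer cells of a kind and less RNA per cell cannot be told apart, and a higher share of one RNA lowers the shares of all others. MT-CO1 (chrM:5904-7445), a core subunit of cytochrome c oxidase, had 10246, 16147 and 24803 CPM (lowest, median and highest) in replicates 3 and 4, against 5139, 5986 and 7665 CPM in replicates 1 and 2. Its log2 fold was 1.36 (SE 0.11, adjusted p = 1.87e-08), and the sets did not overlap. MT-RNR2, the large ribosomal RNA of the organelle, had 1992, 2598 and 4713 CPM in replicates 3 and 4, against 970, 1239 and 1957 CPM in replicates 1 and 2, with a log2 fold of 1.11 (SE 0.066, adjusted p = 2.56e-12). MT-ND6, a subunit of respiratory complex I and the gene that lies on the other strand from most, had 324, 878 and 1410 CPM in replicates 3 and 4, against 107, 238 and 507 CPM in replicates 1 and 2. Its log2 fold of 1.59 (SE 0.24, adjusted p = 7.34e-05) was larger. The sets of MT-ND6 overlapped over all treatments together, but not within any treatment. The nuclear pseudogene copies MTND6P4 (log2 fold 1.71) and MTND5P11 (1.67) had larger folds still. They are near-identical copies of MT-ND6 and MT-ND5 and can share reads with them, so these 2 values are uncertain.

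**Figure D1:**
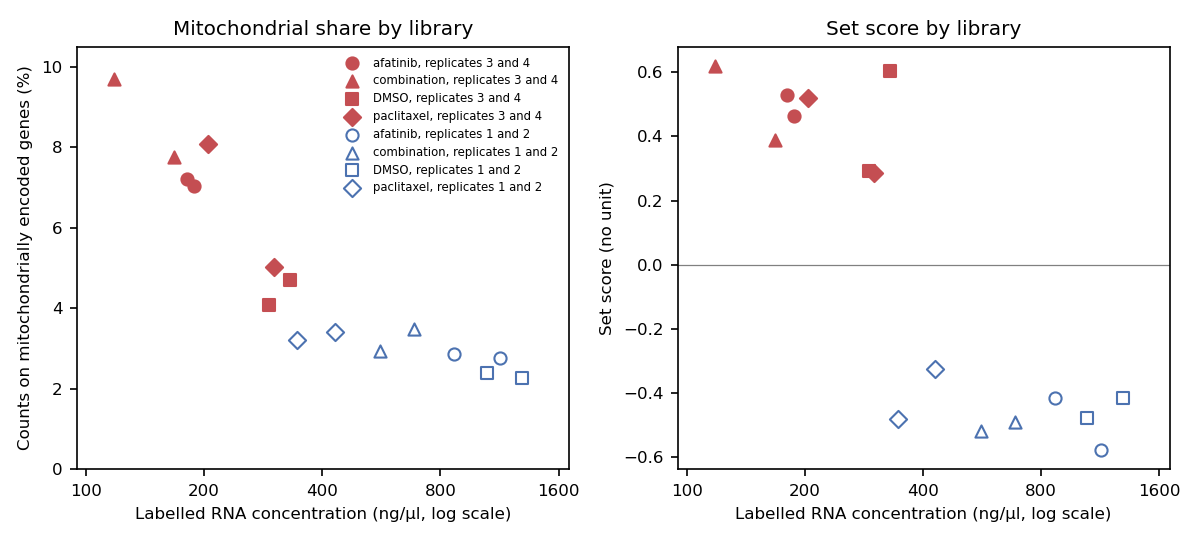
Each point is 1 library, placed by its labelled RNA concentration (ng/µl, log axis); filled points are replicates 3 and 4, open points replicates 1 and 2, and the marker gives the treatment. The left panel shows the percent of counts on mitochondrially encoded genes, from 4.08 to 9.69% in replicates 3 and 4 and from 2.26 to 3.48% in replicates 1 and 2; the right panel shows the set score defined in the text, positive in all 8 libraries of replicates 3 and 4.

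The nuclear genes whose proteins work beside them went the other way. Of 72 tested nuclear-encoded subunits of the respiratory chain 59 fell and 6 rose (median log2 fold -0.33), and of 51 mitochondrial ribosomal proteins 48 fell and 2 rose (-0.46). ATP5J, a subunit of ATP synthase, had 28.1, 32.6 and 37.9 CPM in replicates 3 and 4, against 51.7, 55.3 and 57.6 CPM in replicates 1 and 2 (log2 fold -0.75, SE 0.046, adjusted p = 1.09e-12). UQCRH, a subunit of complex III, had 62.0, 68.7 and 74.5 CPM in replicates 3 and 4, against 100, 108 and 112 CPM in replicates 1 and 2 (-0.65, SE 0.043). Neither gene's sets overlapped. MRPL11, a protein of the large mitochondrial ribosomal subunit, fell by 0.63 and MRPL18 by 0.62 on the log2 scale. Respiratory complexes are built from both genomes, and here the 2 sources of their messages moved in opposite directions in the same libraries. Protein-coding genes with short coding sequences fell in general, with a median of -0.40 for 24 to 188 codons (902 of 1321 lower). The part of coding size in the fall of these nuclear lists was not tested.

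Messages for the cytosolic ribosome were lower almost without exception. Of 77 tested ribosomal protein genes 75 fell and 2 rose, with a median log2 fold of -0.52, and for 67 of them the sets did not overlap. Together they took 3.43 ± 0.27% of the counts in replicates 3 and 4 and 5.31 ± 0.27% in replicates 1 and 2 (SD, n = 8 each; exact permutation p = 0.00154). RPL12 (chr9:127447674-127451405), a protein of the large subunit, had 353, 433 and 540 CPM in replicates 3 and 4, against 770, 866 and 959 CPM in replicates 1 and 2. Its log2 fold was -0.9998 (SE 0.054, adjusted p = 3.8e-13). RPS12 of the small subunit had 243, 282 and 324 CPM in replicates 3 and 4, against 464, 536 and 637 CPM in replicates 1 and 2 (-0.94, SE 0.053, adjusted p = 4.58e-13). RPLP0, the stalk protein often used to normalise qPCR, was at 986, 1152 and 1379 CPM in replicates 3 and 4, against 1745, 1942 and 2126 CPM in replicates 1 and 2 (-0.74, SE 0.046). None of the 3 genes' sets overlapped. Ribosomal protein genes have many processed pseudogenes that can share their reads, and of 1378 tested genes of that class 616 were lower, 141 higher and 621 not called.

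Other lists of the cytosol and nucleus were lower too. Proteasome subunits fell in 26 of 31 cases and rose in 1 (median -0.27), translation factors fell in 20 of 30 and rose in 5 (-0.24), and metallothioneins and S100 proteins fell in 10 of 12 and rose in 1 (-0.41). FTL, the ferritin light chain that stores iron, had 925, 1268 and 1492 CPM in replicates 3 and 4, against 2009, 2499 and 2833 CPM in replicates 1 and 2 (log2 fold -0.94, SE 0.052, adjusted p = 3.48e-13). TMSB10, an actin-binding thymosin of 44 codons, had 1209, 1412 and 1671 CPM in replicates 3 and 4, against 1951, 2241 and 2507 CPM in replicates 1 and 2 (-0.66, SE 0.043). In both genes every library of replicates 3 and 4 was below every library of replicates 1 and 2. Of the genes named for falling most beyond 1.5-fold at a mean log2 CPM of at least 3, the first was BOLA3 (chr2:74135398-74147994), which helps to insert iron-sulfur clusters in mitochondria, with 36.4, 43.5 and 53.8 CPM in replicates 3 and 4, against 85.6, 92.6 and 97.2 CPM in replicates 1 and 2 (-1.06, SE 0.057, adjusted p = 6.72e-13). PPDPF fell by 1.01, CCNI (cyclin I) by 0.89 and SVIP by 0.87 on the log2 scale. Of the spliceosome list 22 of 39 genes fell and 10 rose (median -0.16), and the small core proteins led the fall: SNRPF fell by 0.81 and LSM3 by 0.74. GAPDH and ACTB, common reference genes, also fell, GAPDH by 0.28 (SE 0.044, adjusted p = 2.74e-06) and ACTB by 0.22 (SE 0.046, adjusted p = 0.000102). For both the sets overlapped over all treatments together, but not within any treatment.

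Genes of the extracellular matrix rose as a group. Of 35 tested, 32 rose, none fell, and 30 rose beyond 1.5-fold, with a median log2 fold of 1.02. FN1 (chr2:215360440-215436172), the matrix glycoprotein fibronectin, had 946, 1151 and 1540 CPM in replicates 3 and 4, against 349, 429 and 577 CPM in replicates 1 and 2. Its log2 fold was 1.45 (SE 0.072, adjusted p = 1.1e-12), with 1.37 under afatinib, 1.76 under the combination, 1.30 under paclitaxel and 1.37 under DMSO. LAMC1, a laminin chain of basement membranes, had 618, 792 and 1098 CPM in replicates 3 and 4, against 301, 395 and 497 CPM in replicates 1 and 2 (1.05, SE 0.056). COL6A1, a chain of type VI collagen, had 214, 270 and 320 CPM in replicates 3 and 4, against 109, 127 and 143 CPM in replicates 1 and 2 (1.13, SE 0.059). The sets did not overlap for any of these, and across the list they did not overlap for 26 of 35 genes. Integrins and adhesion proteins gave a like picture, with 24 of 26 higher, none lower and a median of 0.84: ITGB1, the common integrin beta chain, had 1463, 1611 and 2057 CPM in replicates 3 and 4, against 774, 865 and 1012 CPM in replicates 1 and 2 (0.91, SE 0.054), and ITGB4 had a log2 fold of 1.13 (SE 0.057).

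Surface receptors and the proteins of the secretory organelles rose with them. ABCA1 (chr9:104781002-104928237), which exports cholesterol from the cell, had the largest fold of the named protein-coding genes of the nuclear genome, with 21.4, 28.7 and 41.4 CPM in replicates 3 and 4, against 6.19, 9.73 and 13.6 CPM in replicates 1 and 2 (log2 fold 1.56, SE 0.074, adjusted p = 3.17e-13). EGFR, the main target of afatinib, had 712, 872 and 1050 CPM in replicates 3 and 4, against 420, 442 and 570 CPM in replicates 1 and 2 (0.92, SE 0.062, adjusted p = 1.23e-11). Neither gene overlapped between the sets, so the message of the drug's target stood higher in every library of replicates 3 and 4, DMSO included. ERBB2 had a log2 fold of 0.67, CD44, a surface receptor for hyaluronan, one of 0.85, and SLC2A1, the glucose transporter GLUT1, one of 1.07. Cytoskeletal vimentin, by contrast, had a log2 fold of 0.06 (adjusted p = 0.23). Of 28 lysosome and autophagy genes 20 rose and 3 fell (median 0.69), among them the cholesterol exporter NPC1 (1.02) and the enzyme GAA (0.93). Of 24 genes of the cholesterol list 16 rose and 4 fell (0.36), and of 12 fatty acid genes 10 rose and 2 fell (0.54), led by SREBF1 (1.23).

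Chaperones split by the place where they work. Of 19 chaperones of the ER 18 rose, none fell and the median log2 fold was 0.69, while of 18 cytosolic heat shock proteins 11 fell, 1 rose and the median was -0.16. CANX, a lectin chaperone of the ER membrane, had 2547, 2976 and 3633 CPM in replicates 3 and 4, against 1701, 1859 and 1917 CPM in replicates 1 and 2 (0.73, SE 0.052, adjusted p = 8.08e-12). HSPE1, a member of the heat shock list whose protein works in mitochondria, had 22.5, 24.1 and 25.9 CPM in replicates 3 and 4, against 33.0, 37.1 and 41.6 CPM in replicates 1 and 2 (-0.63, SE 0.05). Cells hold related chaperones in both places, which allows comparison of pairs of the same protein family. The coding starts of 3 such pairs are printed to show the codons counted further on. The pairs were chosen after their values were seen, so their folds are a description. Each line gives the first 90 bases of the coding sequence, 5′ to 3′, from the GENCODE v29 transcripts (GRCh38), and capitals mark each codon with T in the middle.
HSPA5: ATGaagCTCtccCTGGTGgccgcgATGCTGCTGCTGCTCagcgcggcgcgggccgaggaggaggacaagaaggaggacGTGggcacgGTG
HSPA8: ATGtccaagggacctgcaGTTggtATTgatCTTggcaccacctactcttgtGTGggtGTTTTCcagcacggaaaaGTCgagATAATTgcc
HSP90B1: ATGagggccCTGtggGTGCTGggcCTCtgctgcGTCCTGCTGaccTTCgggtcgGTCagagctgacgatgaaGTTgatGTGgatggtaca
HSP90AB1: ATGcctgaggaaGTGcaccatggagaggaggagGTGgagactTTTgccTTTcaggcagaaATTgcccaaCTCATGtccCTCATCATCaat
PPIB: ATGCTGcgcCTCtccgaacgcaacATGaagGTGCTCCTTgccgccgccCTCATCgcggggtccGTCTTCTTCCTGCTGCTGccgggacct
PPIA: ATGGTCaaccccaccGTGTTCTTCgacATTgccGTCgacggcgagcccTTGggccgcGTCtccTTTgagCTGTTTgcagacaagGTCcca
HSPA5, HSP90B1 and PPIB code for the ER forms, which carry a signal peptide, and HSPA8, HSP90AB1 and PPIA for the cytosolic forms, which carry none. The count of capitals does not separate every pair: the best 15 of the first 40 codons hold 9 in HSPA5 and 6 in HSPA8, 8 in both HSP90B1 and HSP90AB1, and 9 in PPIB and 7 in PPIA.

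The Hsp70 of the ER, HSPA5 (BiP; chr9:125234853-125241330, minus strand), had 924, 1242 and 1690 CPM in replicates 3 and 4, against 532, 771 and 914 CPM in replicates 1 and 2, a log2 fold of 0.75 (SE 0.11). Its cytosolic relative HSPA8 (chr11:123057489-123063230, minus strand) had 2016, 2834 and 3353 CPM in replicates 3 and 4, against 1981, 3015 and 3323 CPM in replicates 1 and 2, a log2 fold of 0.00 (SE 0.054). The sets did not overlap for HSPA5 and overlapped almost wholly for HSPA8. The ER Hsp90, HSP90B1 (chr12:103930107-103953645), had 740, 856 and 1011 CPM in replicates 3 and 4, against 489, 543 and 585 CPM in replicates 1 and 2, a log2 fold of 0.69 (SE 0.051). The cytosolic HSP90AB1 (chr6:44246166-44253888) had 1704, 2141 and 2462 CPM in replicates 3 and 4, against 1580, 1886 and 1979 CPM in replicates 1 and 2, a log2 fold of 0.17 (SE 0.047). The sets separated for HSP90B1 only. The cyclophilin of the ER, PPIB (chr15:64155812-64163205, minus strand), had 109, 135 and 174 CPM in replicates 3 and 4, against 66.5, 83.2 and 90.4 CPM in replicates 1 and 2, a log2 fold of 0.71 (SE 0.058). The cytosolic cyclophilin PPIA (chr7:44796680-44824564) had 671, 724 and 801 CPM in replicates 3 and 4, against 886, 959 and 1061 CPM in replicates 1 and 2, a log2 fold of -0.41 (SE 0.038). Here the sets of both genes stood fully apart, in opposite directions.

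**Figure D2:**
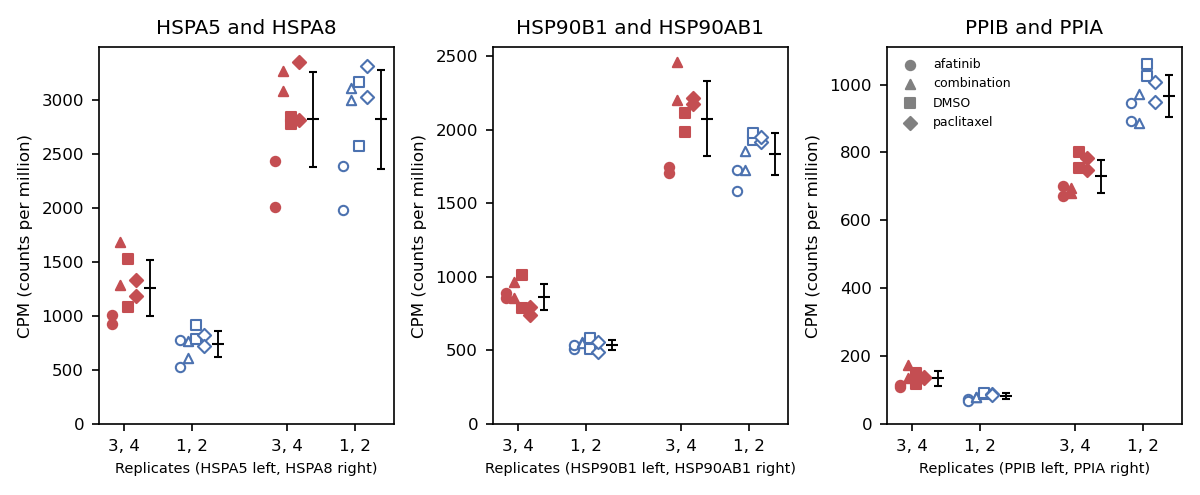
CPM of 3 pairs of related chaperones in each of the 16 libraries, with replicates 3 and 4 (filled) left of replicates 1 and 2 (open) for each gene, markers by treatment, and the mean with its SD (n = 8) at the right of each column. In each panel the ER form is at the left and is higher in replicates 3 and 4 (log2 folds 0.75, 0.69 and 0.71), and the cytosolic form at the right has log2 folds of 0.00, 0.17 and -0.41.

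Families that hold both kinds of protein were then described by symbol, a choice made after values were seen. Of 211 solute carriers outside mitochondria 178 rose and 14 fell, with a median log2 fold of 0.54. The 42 tested SLC25 carriers, which sit in the mitochondrial inner membrane and are made on free ribosomes, fell in 26 cases and rose in 5 (median -0.22), SLC25A5, the ADP and ATP carrier, by 0.38 and the phosphate carrier SLC25A3 by 0.16 on the log2 scale. The proton pump of lysosomes has a sector in the membrane and one in the cytosol. Of 11 tested genes of the membrane sector and its accessory proteins 7 rose and 2 fell (0.30), and of 11 of the cytosolic sector 3 rose and 7 fell (-0.33). The translocon, signal peptidase and oligosaccharyl transferase, the ER machinery that takes in new chains, had 17 of 22 higher and 4 lower (0.52). Cadherins and protocadherins rose in 39 of 46 cases with none lower (0.88), collagens in 21 of 27 with none lower (0.81) and ABC transporters of the subfamilies A, B, C and G in 19 of 24 with none lower (0.73). On the other side stood ubiquitin-conjugating enzymes, with 30 of 32 lower (-0.51), RAB GTPases, with 43 of 62 lower (-0.31), and the chaperonin CCT, with 9 of 9 lower (-0.22). Zinc finger genes of the ZNF series were closer to the background, with 189 higher and 68 lower of 443 (0.14), and 12 of them rose beyond 1.5-fold. Other families were mixed. TMEM genes had 106 higher and 41 lower of 186 (0.24), and glycosyltransferases 40 higher and 10 lower of 63 (0.34). Kinesins had 15 higher and 6 lower of 32 (0.09).

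**Figure D3:**
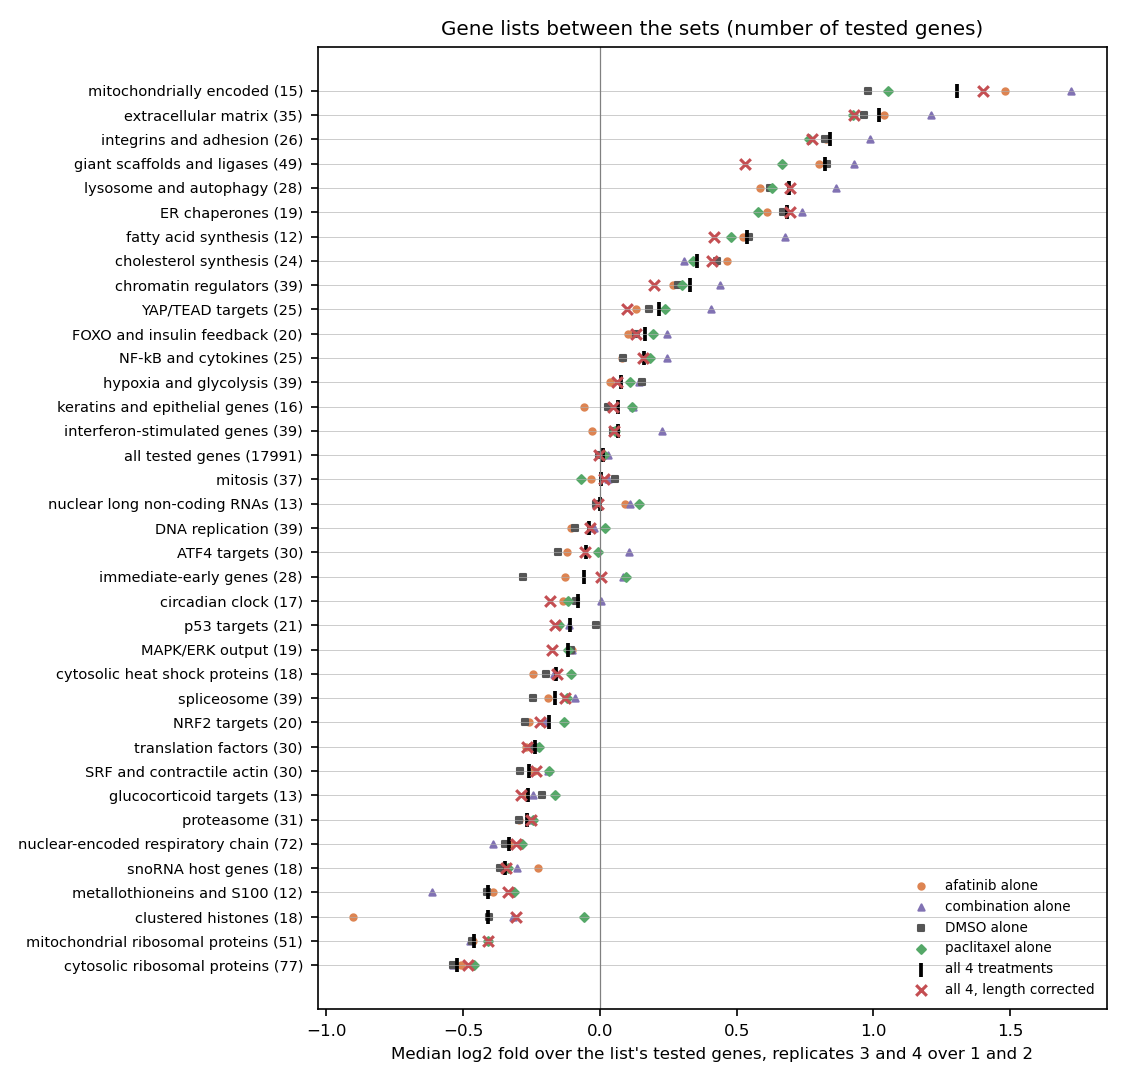
Median log2 fold (replicates 3 and 4 over replicates 1 and 2) over the tested genes of each list shown, with the number of tested genes beside each name; the black tick is the fit over all 4 treatments, the red cross the same after the length correction, and the small markers the 4 treatments alone. The lists shown run between 1.30 for mitochondrially encoded genes and -0.52 for cytosolic ribosomal proteins, with all tested genes at 0.01. Small structured non-coding RNAs (4 tested, 1 higher and 2 lower, median -0.71) and the lists of cell type markers are not shown.

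To describe this over all protein-coding genes, the T-middle codons were counted in every stretch of 20 codons of the longest coding sequence, and the richest stretch of each of 13209 genes was kept. The count and its limits were chosen after values were seen and no test was run on them. The median log2 fold was -0.42 for 133 genes with at most 6 such codons, -0.06 for 3245 genes with 10, 0.22 for 1249 genes with 12, 0.52 for 613 genes with 14, 0.57 for 365 genes with 15, 0.49 for 187 genes with 16 and 0.47 for 62 genes with 17 or more. It was thus highest at 15 and lower beyond. A longer coding sequence has more stretches to choose from, so the richest count also depends on coding size. The median Length was 2698 bases for genes with at most 6 such codons and 5270 bases for genes with 10. Genes with at least 13 of 20, or with at least 9 in some 15 codons among the first 40, were called genes with a segment. Of 1451 genes with a segment at the start 1025 rose (70.6%) and 144 fell (9.92%), median 0.51. Of 1300 genes with a later segment only 898 rose (69.1%) and 161 fell (12.4%), median 0.47. Of 10458 genes with none 3088 rose (29.5%) and 4437 fell (42.4%), median -0.06. Near the limit, genes with 12 in the richest stretch had a median of 0.22 and genes with 13 one of 0.45, so the limit cuts through a range in which the medians change gradually. The printed pairs show how coarse the count is: HSP90B1 holds 8 T-middle codons in its best 15 near the start, as does HSP90AB1, and so counts as without a segment. By family, 80.6% of the solute carriers outside mitochondria, 95.7% of the cadherins and 91.7% of the ABC transporters held a segment, against 0 of 42 SLC25 carriers and 0 of 62 RAB GTPases. The split was less clean elsewhere. A segment was held by 61.8% of TMEM genes, of which 41 of 186 fell, and by 46.0% of glycosyltransferases. Of the 32 kinesins 0 held one, yet 15 rose and 6 fell. The count does not cover all that rose: 2 of 27 collagens and 8 of 25 ADAM and ADAMTS proteases held a segment, and FN1, with 9 T-middle codons in its richest 20 and 7 in its best 15 near the start, held none.

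**Figure D4:**
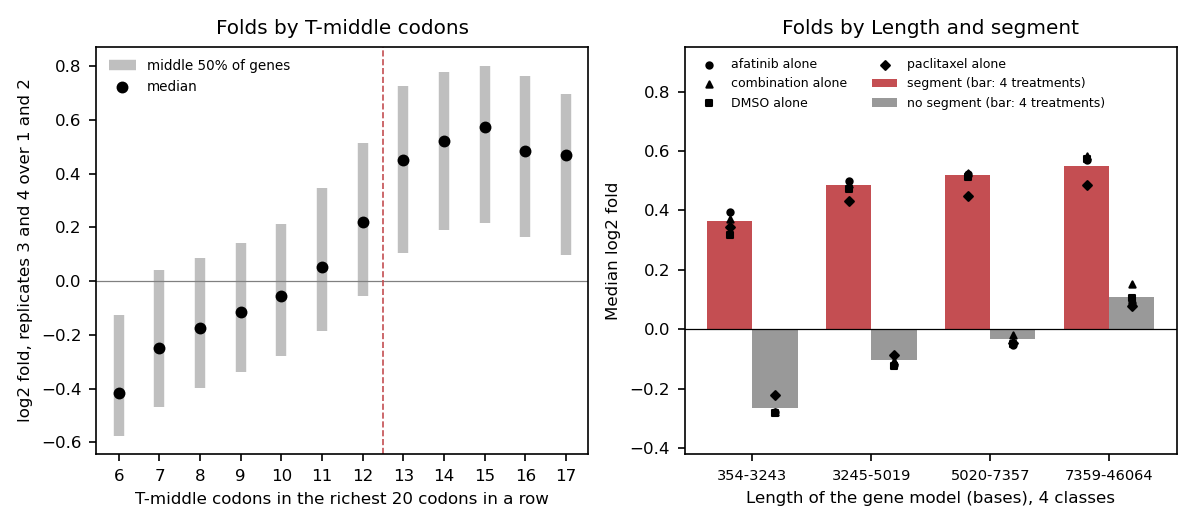
Left, log2 folds of protein-coding genes by the number of T-middle codons in their richest 20 codons (the ends, 6 and 17, include fewer and more), with the median as a point and the middle 50% of genes as a bar; the dashed line marks the limit of 13. Right, median log2 folds of genes with a segment (red) and without (grey) in 4 classes of Length, with each treatment as a marker: 0.36 against -0.26 in the shortest class and 0.55 against 0.11 in the longest.

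Gene length went with the folds as well, though weakly. The slope of log2 CPM on log2 Length, taken per library after centring each gene within its treatment, was 0.024 ± 0.009 in replicates 3 and 4 and -0.024 ± 0.015 in replicates 1 and 2 (SD, n = 8 each), with a difference of 0.048 log2 units for each doubling of Length and no overlap (exact permutation p = 0.00154, two-sided). Centring makes the 2 means mirror each other. Over 10 classes of Length the median log2 fold rose step by step, between -0.20 for genes of 53 to 820 bases and 0.22 for genes of 9446 bases and more. In the longest class 1084 of 1799 genes rose and 298 fell, and in the shortest 478 of 1800 rose and 656 fell. Across all tested genes Spearman's rho between Length and fold was 0.21, a straight line in log2 Length held 1.52% of the variance of the folds, and a smooth curve held 3.10%. The slope depends on which genes enter: it was 0.149 for genes with a mean log2 CPM of at least 3 and 0.084 for genes of at least 1000 bases. The share of counts on short genes depended on the mitochondrial ones. Genes under 1000 bases took 3.45 ± 0.57% of counts in replicates 3 and 4 and 2.58 ± 0.16% in replicates 1 and 2. The difference was 0.877 percentage points, but without mitochondrially encoded genes the difference was -0.431 points. Genes over 5000 bases took 55.03 ± 0.83% in replicates 3 and 4 and 52.4 ± 0.59% in replicates 1 and 2.

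Of the measures of size, the coding sequence followed the folds most closely. Over 13209 protein-coding genes, rho with the fold was 0.43 for the number of codons, 0.30 for the longest transcript, 0.26 for Length, 0.20 for the number of exons, 0.12 for GC content, 0.10 for the genomic span and -0.16 for the mean level. These are correlations across genes, which are not independent replicates. The median log2 fold by class of codons ran between -0.40 for 24 to 188 codons (902 of 1321 lower) and 0.35 for 1198 codons and more (1021 of 1321 higher, 53 lower). Length alone held 5.62% of the variance in these genes, codons 15.8%, T-middle codons 16.3%, and all of these with GC content and level 32.0%. Coding size and segments each went with the fold inside classes of the other. Among genes of fewer than 300 codons, those with a segment had a median of 0.24 (313 higher and 154 lower of 626) and those without one of -0.35 (308 higher and 1892 lower of 2677). Among genes of 761 codons or more the medians were 0.63 (600 higher, 22 lower of 738) and 0.17 (1430 higher, 353 lower of 2564). The same held by Length: in genes of 354 to 3243 bases the median was 0.36 with a segment and -0.26 without, and in genes of 7359 bases or more 0.55 with a segment and 0.11 without.

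**Figure D5:**
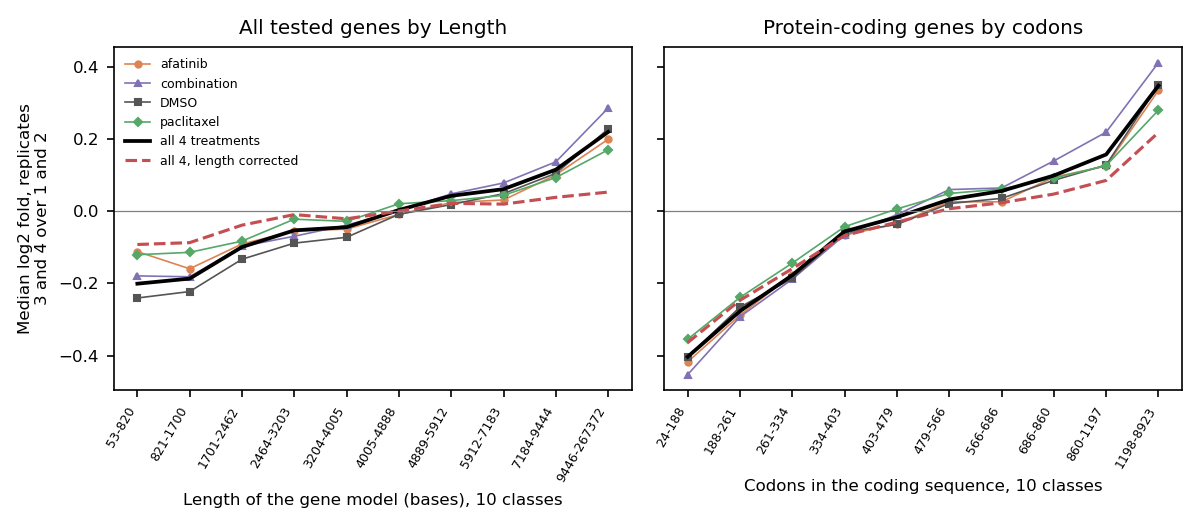
Median log2 fold (replicates 3 and 4 over replicates 1 and 2) in 10 classes of Length for all tested genes (left) and 10 classes of codon number for protein-coding genes (right), for each treatment (thin lines), for all 4 together (black) and after the length correction (dashed red). The black line runs between -0.20 and 0.22 by Length and between -0.40 and 0.35 by codons, and the correction flattens the left panel more than the right.

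Removing the length trend from each library left most calls in place and moved the long genes most. With a smooth of log2 Length taken out as an offset, 12314 genes passed (68.4%), against 12508 without. Of these, 11505 were called both ways with the same sign and 22 with the opposite one, 787 were called only with the correction and 981 only without it. The SD of all folds was 0.501 with it, against 0.509 without. In the longest class by Length 745 genes rose and 546 fell with the correction, against 1084 and 298 without. The extracellular matrix kept a median log2 fold of 0.93, the cytosolic ribosomal proteins -0.48 and the mitochondrially encoded genes 1.40. The correction took most from genes chosen for size. Of 49 giant scaffolds and ligases 47 rose before and 46 after it, with a median of 0.82 before and 0.53 after. MACF1 (chr1:39081316-39487177), a crosslinker of actin and microtubules with a Length of 43102 bases, had 659, 705 and 902 CPM in replicates 3 and 4, against 331, 356 and 412 CPM in replicates 1 and 2, a log2 fold of 1.05 (SE 0.055) before and 0.53 after. UBR4, a ubiquitin ligase, had 613, 708 and 878 CPM in replicates 3 and 4, against 337, 366 and 424 CPM in replicates 1 and 2 (0.92 before and 0.57 after). The ligase RNF213 had log2 folds of 0.84 and 0.44, the linker DST 1.21 and 0.70, the kinase SMG1 0.60 and 0.23, and the ribosome assembly factor MDN1 0.91 and 0.64. All 6 stayed called. Chromatin regulators, large nuclear proteins, rose in 33 of 39 cases before (median 0.33) and 23 after (0.20). KMT2A had log2 folds of 0.98 and 0.66, and KMT2D of 0.66 and 0.36.

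The next 3 genes have a long gene model and a short coding sequence, and were picked for this after values were seen. GNAI3, a G protein subunit with 354 codons and a Length of 27174 bases, had 142, 163 and 181 CPM in replicates 3 and 4, against 142, 161 and 185 CPM in replicates 1 and 2, with a log2 fold of 0.00 to 2 decimals (SE 0.038, adjusted p = 0.994). After the length correction it had -0.38 (adjusted p = 1.15e-08). MRPL42, with 155 codons and 16393 bases, had a log2 fold of -0.70 before and -0.95 after, and RAP1B, a small GTPase with 184 codons and 16942 bases, -0.64 and -0.89. In all 3 the correction moved the value away from 0. A pair of long actin-binding genes was higher: FLNA had 4711, 5223 and 6003 CPM in replicates 3 and 4, against 3180, 3576 and 4043 CPM in replicates 1 and 2 (0.58, SE 0.049), and VCL had a log2 fold of 0.87. The list of SRF and contractile actin genes to which they belong fell in 19 of 30 cases and rose in 9 (median -0.26).

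Genes without a protein product split by kind. KCNQ1OT1, an antisense RNA kept in the nucleus with a Length of 91667 bases, had 5.03, 7.03 and 9.91 CPM in replicates 3 and 4, against 1.29, 1.99 and 4.05 CPM in replicates 1 and 2 (log2 fold 1.65, SE 0.091, adjusted p = 3.8e-13), and 0.90 after the length correction. It overlaps the gene KCNQ1 on the other strand, and since the counting was not stated to use strand, their reads cannot be told apart. The list named nuclear long RNAs had 6 higher and 5 lower of 13, with a median of 0.00. It also holds NORAD and OIP5-AS1, and where each member lies in the cell was not checked. The share of counts of this list was 0.0647 ± 0.0061% in replicates 3 and 4 and 0.0658 ± 0.0037% in replicates 1 and 2 (exact permutation p = 0.613). MALAT1, a nuclear speckle RNA, had 42.2, 54.1 and 65.2 CPM in replicates 3 and 4, against 20.1, 31.9 and 53.7 CPM in replicates 1 and 2 (0.76, SE 0.14, adjusted p = 0.000288), and NEAT1 had a log2 fold of 0.54 (adjusted p = 0.00105) that missed the threshold after the length correction (0.21, adjusted p = 0.135). Genes annotated as sense intronic rose in 88 of 152 cases and fell in 12, and those still to be experimentally checked (type TEC) rose in 105 of 169 and fell in 9. Antisense genes rose in 423 of 1019 and fell in 184. Clustered histones, whose messages mostly lack a poly(A) tail, fell in 9 of 18 cases with none higher, against 33.3% lower over all tested genes. After the length correction 6 fell. Their median log2 fold was -0.90 under afatinib, -0.32 under the combination, -0.06 under paclitaxel and -0.41 under DMSO. Their share of counts was 0.0037 ± 0.002% in replicates 3 and 4 and 0.0049 ± 0.0019% in replicates 1 and 2 (exact permutation p = 0.00154). With 1 library left out in turn, the smallest such difference was -0.00065 percentage points (exact permutation p = 0.265). At 28366004 counts drawn per library, the number of genes detected was 25840 ± 430 in replicates 3 and 4 and 24799 ± 512 in replicates 1 and 2 (SD, n = 8 each; exact permutation p = 0.00154).

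Most genes called between the sets had the same direction under each treatment. Within afatinib 8080 genes passed (44.9%), within the combination 8360 (46.5%), within paclitaxel 6628 (36.8%) and within DMSO 7410 (41.2%), with 2 libraries against 2 in each. Of the 12508 called genes 11985 (95.8%) had 1 sign in all 4 treatments. They were called from the same libraries over all treatments together, which favours genes of 1 sign, so a high share is partly built in. In each of the 4 treatments 4867 genes were called with 1 sign, 2488 higher and 2379 lower. The test of whether the difference depends on treatment called 0 genes (0%) with edgeR, 612 genes at an unadjusted p under 0.05, and 28 genes with the likelihood ratio test of DESeq2. The 612 genes are 3.4017% of those tested, below the 5% expected by chance. The 28 include SMARCA4, a chromatin remodeller (log2 folds of 0.25 under afatinib, 0.81 under the combination, 0.42 under paclitaxel and 0.16 under DMSO), and MYH9, a heavy chain of non-muscle myosin (0.45, 1.07, 0.72 and 0.39 in the same order of treatments). Both genes were highest under the combination. MALAT1, also among the 28, had 1.15 under afatinib, 0.32 under the combination, 0.45 under paclitaxel and 1.16 under DMSO. A p that misses the threshold does not show that the other genes differ alike in all treatments. The folds of a treatment regressed on the mean folds of the other 3 had slopes of 0.98 for afatinib, 0.99 for the combination, 0.78 for paclitaxel and 0.90 for DMSO.

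The sets' gap in concentration varied more between treatments than the size of the folds did. The mean labelled concentration of replicates 1 and 2 was 5.44 times that of replicates 3 and 4 under afatinib, 4.36 times under the combination, 1.54 times under paclitaxel and 3.76 times under DMSO. Paclitaxel, with the smallest gap, had the slope of 0.78 given above, and its set difference set against that of the other 3 groups called 0 genes (0%) with edgeR and 466 at an unadjusted p under 0.05 (2.59%). That share is also below the 5% expected by chance. A set score was computed for each library as the projection of its deviation from its treatment mean on the set difference of the other 3 treatments, so that a gap of 1 between the sets means a difference of the same size as there. The scores were 0.29 to 0.62 in replicates 3 and 4 and -0.58 to -0.32 in replicates 1 and 2. They are centred within each treatment, so they are not comparable with concentrations across treatments. Within the 8 pairs of libraries of 1 treatment and set, the library of lower concentration had the higher score in 4 pairs and the higher mitochondrial share in 5. With log2 concentration in place of the set 11856 genes passed, and with both in the model 3631 genes passed for the set, 3610 of them also called without concentration and with the same sign. In that model 0 genes passed beyond 1.5-fold, against 1827 without concentration. For concentration itself 0 genes passed with edgeR, with 711 of the 17991 tested at an unadjusted p under 0.05, fewer than the 5% expected by chance. The sets do not overlap in concentration within any treatment, so concentration and set largely go together in this model. Its counts do not tell the 2 apart.

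A second deposited table holds log2 values that the authors describe as corrected for RNA concentration. In it, 4328 genes (24.1%) still differed between the sets by limma, 2373 higher and 1955 lower in replicates 3 and 4. Of the 12508 genes called from the counts 4115 (32.9%) were called there with the same sign and 20 with the opposite one. The differences were smaller, with a slope of 0.35 on the folds from the counts and an SD of 0.210, against 0.509. FN1 had a log2 difference of 0.60 in that table, against 1.45 from the counts, RPL12 -0.39 against -0.9998, and MT-CO1 0.35 (adjusted p = 0.126) against 1.36. The first 2 stayed called and the last did not. Without combination replicate 4 the count in the table was 2681, and without paclitaxel replicate 4 it was 2779.

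Markers of other cell types moved with the sets in part. Of 6 tested endothelial markers 5 rose, and their summed level was 196 to 309 CPM in replicates 3 and 4 and 125 to 184 CPM in replicates 1 and 2. Most of that sum was ESAM, an adhesion protein, with a median of 267 CPM in replicates 3 and 4 and 152 CPM in replicates 1 and 2 (log2 fold 0.75). The highest value in any library was 4.18 CPM for KDR, 2.64 CPM for CDH5 and 0.72 CPM for VWF. The fibroblast list summed to 5.47 to 9.33 CPM in replicates 3 and 4 and 3.23 to 4.85 CPM in replicates 1 and 2, and the blood list to 4.93 to 7.18 CPM in replicates 3 and 4 and 6.04 to 8.18 CPM in replicates 1 and 2. None of the markers matched to a row of the count table (8 of 8 endothelial, 8 of 9 fibroblast, 9 of 12 blood and 9 of 10 luminal) was at 0 in all libraries. The luminal breast list was 707 to 972 CPM in replicates 3 and 4 and 728 to 1109 CPM in replicates 1 and 2. Their part in the results was not tested. Lists that report on the drugs or on cell state lay on both sides of the 69.5% called over all tested genes. DNA replication had 9 higher and 17 lower of 39 (median -0.04), mitosis 8 and 12 of 37 (0.00), immediate-early genes 6 and 7 of 28 (-0.06) and interferon-stimulated genes 16 and 6 of 39 (0.06). MAPK/ERK output had 6 higher and 11 lower of 19 (-0.12), YAP/TEAD targets 14 and 6 of 25 (0.22), hypoxia and glycolysis 19 and 12 of 39 (0.08) and NRF2 targets 3 and 13 of 20 (-0.19). Members of these 4 lists, and of the SRF and contractile actin list given above, moved in both directions, and more of them passed than over all genes. The same held for glucocorticoid targets, with 4 higher and 7 lower of 13. The lists that follow lay close to the share called over all genes. p53 targets had 5 higher and 10 lower of 21, NF-kB and cytokine genes 12 and 6 of 25, and FOXO and insulin feedback 12 and 2 of 20. ATF4 targets had 9 higher and 12 lower of 30, and circadian clock genes 5 and 7 of 17.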

How the data were processed

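RNA of 16 libraries was sequenced. The authors deposited raw counts per gene with a Length column in bases, and log2 values that they describe as RNA concentration corrected (these sources do not state how). Reads were aligned with STAR 2.7.5b to hg38 and counted with featureCounts (Subread version 2.0.1), as named in the submitters' processing notes. These sources do not state the annotation or the strand setting.

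From the counts, 17991 of 37864 genes were kept with filterByExpr (minimum count 10, minimum total 15), scaled with TMM factors and fitted in R 4.3.3 with edgeR 4.0.16 (robust quasi-likelihood) on treatment plus set over 16 libraries. The null of 1.5-fold used glmTreat, the log2 table limma 3.58.1 with the same terms, and DESeq2 1.42.0 was an alternative. Each SE is the absolute log2 fold over the square root of F. CPM values use TMM-scaled library sizes, and shares are percent of all counts. The length correction took a loess curve (span 0.3) of each gene's log2 CPM deviation from its mean on log2 Length out of each library as an offset. Library values were compared by exact permutation of set labels within treatments, and with 10 measures the p-values were adjusted together. Were libraries of 1 number handled together, the 6 arrangements of the 4 numbers would allow no two-sided p below 0.333. Scripts were tested on simulated data.

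Annotation came from GENCODE v29, in which Length equals the exon union for 90.2% of 36220 matched genes. Of 1158 list symbols in 41 lists 1118 matched. Members and lists were chosen with earlier results of these data known. Named genes are the 12 largest changes beyond 1.5-fold in each direction with 1 sign in all treatments and a mean log2 CPM of at least 3, the 8 largest after the length correction, up to 4 per list with the smallest p, 5 each way for paclitaxel and the 6 longest and shortest abundant genes. Which of them are printed, and the chaperone pairs, SLC25 carriers, housekeeping genes, receptors, MALAT1 and NEAT1, were chosen after values were seen. A further 2 numeric columns were not used.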

Additional observations from a re-analysis of the deposited data

Results flagged for a closer look

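Among 196 sets of 8 values tested for a value far from the others, 6 held one, and chance flags about 1 in 20. The total of paclitaxel replicate 4 was 28366004 counts, against 39667328 to 48108577 counts in the other libraries of replicates 3 and 4. In DMSO replicate 3 the share of small structured non-coding RNAs was 0.0025%, against 0.00096 to 0.00164% in the other libraries of its set. RN7SK, an abundant small nuclear RNA, was at 17.2 CPM in the same library, against 1.70 to 8.95 CPM in the others of its set. PSMB2, a proteasome subunit, was at 199 CPM there, against 159 to 177 CPM. MACF1 was at 412 CPM in DMSO replicate 1, against 331 to 369 CPM in the other libraries of replicates 1 and 2. CANX was at 1701 CPM in paclitaxel replicate 1, against 1845 to 1917 CPM. All 6 are values far from the rest of their set, and their sources were not tested.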

How the results depend on the processing

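Calls between the sets kept their number within 1.5 times under other scalings, filters, DESeq2, the length correction and the model with log2 concentration in place of the set. The median of all folds shifted by at most 0.02 under the other scalings, DESeq2 and the length correction. With the replicate block (replicate number as 4 levels, since numbers are nested in the sets) 12926 genes passed, 2048 of them beyond 1.5-fold. Leaving out 1 library gave 12112 to 12520 calls (6091 to 6460 higher, 5765 to 6229 lower), 1530 to 2071 beyond 1.5-fold (1347 to 1790 higher, 126 to 319 lower). Without the combination group 80 genes fell beyond 1.5-fold. Counts that moved more were, for DESeq2, 1021 beyond 1.5-fold (939 higher, 82 lower), and, for genes lower beyond 1.5-fold, 287 with no filter and 123 with a stricter one. A 1.2-fold null gave 7140 (4212 higher, 2928 lower) and a 2-fold null 48 (48 higher, 0 lower). With log2 concentration beside the set 3631 passed (1890 higher, 1741 lower) and 0 beyond 1.5-fold (0 higher, 0 lower). These 2 terms largely go together, so the counts do not tell them apart. The authors' corrected table gave 4328 (2373 higher, 1955 lower), and 2681 to 6038 with 1 library left out, an alternative added after seeing the data. The DESeq2 interaction test, also added then, called 28. The nuclear long RNA share, not called, turned to 0.0015 points without mitochondrial genes and lay between -0.00208 and 0.00064 with 1 library left out, and the share of genes under 1000 bases turned to -0.431 points without mitochondrial genes. Of 85 named genes recomputed, RN7SK passed with the block and with DESeq2, GNAI3 passed and NEAT1 was lost with the length correction. The cause was not tested. At 28366004 counts or more per library, genes near the minimum count rest on few reads.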
